A study of Mus musculus with 2084 samples.

Results

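The glial intermediate filament genes described here are Gfap, Vim, Nes and Synm, chosen by name, and all 4 of the 4 were found among the 35606 gene IDs of the count table. They were measured by Smart-seq3 single-cell RNA sequencing of sorted cells from the adult mouse ventricular-subventricular zone (vSVZ, the wall of the lateral ventricle where adult neural stem cells live), the striatum beside it, the cortex and the olfactory bulb. Of 2084 labelled cells, 1981 were in the table, from 11 lettered replicates, pA to pM, each of 1 or more mice. Gene counts per cell summed to between 3771 and 1842234, with a median of 160621, and the median per letter ran from 120498 in pD to 1000343 in pB.

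The groups were as follows. TiCY mice carry a Cre recombinase under the Tlx (Nr2e1) promoter, which is active in neural stem cells, and an eYFP reporter that tamoxifen switches on in those cells and their progeny. TiCY-IFN(A/G)R KO mice, which lack interferon receptors, were killed 2 days after a bilateral carotid occlusion, a global forebrain ischemia, and the naive IFN(A/G)R KO mice set against them are not labelled TiCY. Both KO groups carry the letter pJ and are called KO at 2 days and KO naive here. TiCY mice were naive (pM, no ischemia; the labels do not say whether they had tamoxifen) or were killed 2 days (pI) or 21 days (pH) after the occlusion. Ischemic mice received tamoxifen at 2 months of age and the occlusion 2 weeks later. WT mice without tamoxifen or ischemia gave pA to pF, and WT TCF-Lef reporter mice gave GFP+ sorted astrocytes of cortex and striatum (pL). Cells were sorted on surface proteins. The GLAST sort takes cells with the glutamate transporter of astrocytes and stem cells, and in pA to pC separate sorts were named ASTRO, NB, NSC and OLIGO in the labels.

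Each ischemia arm was 1 letter, so no arm has a replicate of its own, and letter and arm cannot be told apart in TiCY mice. Where letters do replicate a group, nothing in the labels says that they are single animals, so p-values measure the spread between letters. The labelled cell types may themselves have been called from the same transcriptomes, and p-values between types are therefore descriptive. The surface sorts and the GLAST sorts were made on surface proteins, not on transcripts. In naive striatum the GLAST sums are the same cells as the type striatal astrocyte, 131 in TiCY and 35 in KO. At 2 days the KO striatal sum held 82 cells labelled striatal astrocyte, 27 labelled neurogenic striatal astrocyte and 5 labelled reactive astrocyte. The striatal sums of the 2 times thus also differ in labelled types, and the part of this was not tested. The GLAST sums, however, do not hold every labelled cell, and 34 TiCY cells of the 2-day striatal sort are not in them. Gfap was read in 47.1% and Synm in 76.5% of these, against 80.3% and 17.2% of the 122 cells summed. Whether transcripts played a part in which cells are missing was not tested. In the naive GLAST sorts the label was borne out by the 8 astrocyte markers, which summed to between 23631 and 35576 CPM (read counts of a gene scaled to all gene reads of the sum). At 2 days they summed to 24000 in KO striatum and 7994 in TiCY striatum, and to 10546 in KO vSVZ and 6394 in TiCY vSVZ, with none of the 8 at 0.

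Intermediate filaments are the rope-like part of the cytoskeleton. GFAP and vimentin form the filaments of astrocytes, nestin and synemin are long members that join vimentin filaments rather than form filaments alone, and the make-up of the network is a textbook feature of stem cell stages. Astrocytes add GFAP, vimentin and nestin when they become reactive after injury, and a STAT3 signal at the Gfap promoter is a known route to GFAP synthesis.

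The genes lie on 4 chromosomes of GRCm38. Gfap spans chr11:102887336-102900912 on the minus strand, Vim chr2:13573927-13582826 on the plus strand, Nes chr3:87971078-87980451 on the plus strand and Synm chr7:67730160-67759742 on the minus strand. Gfap overlaps a long noncoding gene, Gm26668, and Synm overlaps Ttc23 and Gm45102, all on the opposite strand. Whether counting used strand is not given in the sources used here, so reads of these partners cannot be told apart from reads of Gfap and Synm where exons overlap. Gfap, Vim and Nes were called higher at 2 days after ischemia and Synm was not, and any part of the promoters in this was not tested. The stretches below run from 150 bases before to 30 bases after each RefSeq start (GRCm38.p6). They are written in the direction of the gene, with a STAT-type match, TTCNNNGAA on either strand, in capitals.

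Gfap, chr11:102897171-102897350, minus strand: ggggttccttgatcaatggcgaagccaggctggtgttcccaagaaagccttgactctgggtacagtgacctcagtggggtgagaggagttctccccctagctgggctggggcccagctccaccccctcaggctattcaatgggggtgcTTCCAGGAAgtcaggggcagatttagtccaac
Vim, chr2:13574161-13574340, plus strand: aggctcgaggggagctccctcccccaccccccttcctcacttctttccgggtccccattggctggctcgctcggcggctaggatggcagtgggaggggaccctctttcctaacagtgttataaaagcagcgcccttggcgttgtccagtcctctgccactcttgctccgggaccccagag
Nes, chr3:87970943-87971122, plus strand: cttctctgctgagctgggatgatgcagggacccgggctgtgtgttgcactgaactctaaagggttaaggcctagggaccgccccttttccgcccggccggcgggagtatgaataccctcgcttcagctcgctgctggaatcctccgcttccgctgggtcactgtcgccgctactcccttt
Synm, chr7:67759713-67759892, minus strand: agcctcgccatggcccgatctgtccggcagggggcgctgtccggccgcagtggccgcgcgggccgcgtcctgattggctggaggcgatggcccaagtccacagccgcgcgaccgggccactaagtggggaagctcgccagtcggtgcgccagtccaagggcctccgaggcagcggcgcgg

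Gfap held 1 STAT-type match, TTCCAGGAA, from base -2 to base 7 counted from the start, with no base 0. Vim, Nes and Synm held none in the 300 bases searched, 250 before to 50 after the start. Of all 32851 RefSeq promoter windows of that length, 8.3% held such a match. Bases further upstream were not searched, so the Gfap match cannot be taken for the site of the known STAT3 route. Whether STAT3 binds at this match was not tested. No TGANTCA (an AP-1-type motif, in 7.81% of windows) and no ACAATG (SOX-type, in 12.6%) was found in the 4 windows, on either strand. The E-box CANNTG, in 72.3% of windows, was found in Synm alone, as CACGTG from -193 to -188. The GC content of the 300 bases was 55.7% in Gfap, 59.3% in Vim, 58.7% in Nes and 72.7% in Synm, against a median of 52.7% over all windows, and the windows held 3, 11, 18 and 33 CG pairs in the same gene order.

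In WT cells the levels of the 4 genes differed in pattern over the labelled types, from quiescent stem cells to neuroblasts and oligodendrocytes. qNSC2, 1 of the 2 quiescent stem cell classes in the labels, had the highest Gfap. Active stem cells (aNSC) and transit-amplifying progenitors (TAP) had Vim near the level of qNSC2 and a higher mean Nes, with overlapping letters, while their Gfap was low. Neuroblasts had almost no Gfap, and oligodendrocytes had Synm and little of the other members. Each value below is the CPM of all cells of a type in 1 letter, summed.

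Gfap, the filament protein that defines astrocytes, was at 156, 366, 319 and 1208 CPM in qNSC2 of pA, pB, pD and pE, against 105.5, 81.5, 85.2, 16.2 and 48.5 CPM in qNSC1 of pA to pE. All qNSC2 sums lay above all qNSC1 sums. In pA and pB, however, qNSC2 was 3 cells each, and 1 cell gave 99.2% and 99.9% of the Gfap reads. Gfap then stood at 23.9, 7.51 and 15.996 CPM in aNSC of pC, pD and pE, below every qNSC2 sum, at 0, 4.003 and 0 CPM in TAP of the same letters, and at 0 to 1.11 CPM in neuroblasts of pA to pD. Even the aNSC reads came from few cells, with 47.5% to 98.0% of them in 1 cell.

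Vim, the filament protein of immature and mesenchymal cells, averaged 212 ± 91.0 CPM in qNSC2 (SD, n = 4 letters) and 26.7 ± 7.16 CPM in qNSC1 (n = 5), with no overlap. It was 183 ± 30.5 CPM in aNSC, 181 ± 115 CPM in TAP (n = 3 each) and 111 ± 77.01 CPM in neuroblasts (n = 4), and those neighbours overlapped. Nes, the filament protein by which neural progenitors are commonly recognised, averaged 50.8 ± 29.97 CPM in qNSC2 and 4.09 ± 8.64 CPM in qNSC1. The 2 groups overlapped through pD, whose qNSC1 stood at 19.5 CPM against at most 0.572 CPM in the other letters. In aNSC, Nes was at 44.1, 128.6 and 382 CPM, in TAP at 88.0, 124.3 and 43.3 CPM, and in neuroblasts at 7.75 to 314 CPM, the highest from 7 cells of pD of which 1 held 93.3% of the reads.

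Synm, whose protein ties filaments to muscle and glial membranes, was at 211, 140 and 147 CPM in oligodendrocytes of pA, pB and pC, against 27.9, 1.38, 0, 2.04 and 17.9 CPM in qNSC1 of pA to pE. It reached 22.3 CPM at most in qNSC2 and 15.2 CPM at most in TAP. In the same oligodendrocyte sums Gfap was at 1.15 to 4.999 CPM, Vim at 0 to 1.11 CPM and Nes at 0 to 0.239 CPM. Per kilobase of exon, the measure on which genes can be compared, the mean level in oligodendrocytes was 20.9 CPM for Synm and 0.580 CPM for Gfap; in qNSC2 it was 121.5 for Gfap, 44.8 for Vim, 7.92 for Nes and 0.745 for Synm, and in aNSC 3.75, 38.5, 28.8 and 0.192 in the same gene order. In WT olfactory bulb cells labelled neuroblast or neuron (pF, 55 cells) the CPM was 13.6 for Gfap, 62.6 for Vim, 51.9 for Nes and 6.17 for Synm.

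**Figure D1:**
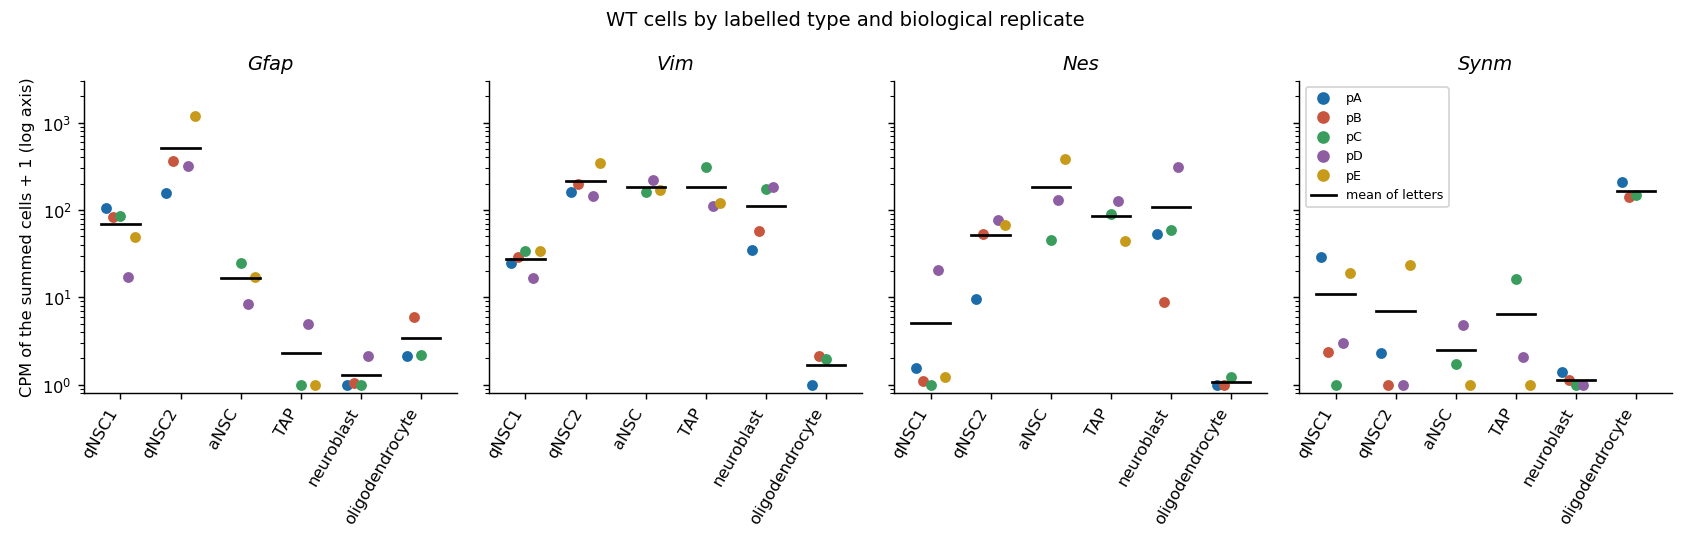
CPM plus 1 (log axis) of each filament gene in WT cells by labelled type; each point is the sum of 1 letter's cells, coloured by letter, and bars are means over letters. Gfap is highest in qNSC2, between 156 and 1208 CPM, and Synm is at 140 to 211 CPM in oligodendrocytes. Vim and Nes spread widely over letters in neuroblasts, from 33.7 to 182 CPM and from 7.75 to 314 CPM.

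The steps were tested with edgeR's quasi-likelihood test over 14915 genes, with Benjamini-Hochberg adjustment. Between oligodendrocytes and qNSC1, where 11% of genes passed, Gfap (log2 difference -4.42, SE 1.23, adjusted p = 0.0200) and Vim (-4.94, SE 0.903, adjusted p = 0.000759) fell in oligodendrocytes. There Nes had a log2 difference of -6.26 (adjusted p = 0.0721) and Synm one of 4.30 (SE 1.61, adjusted p = 0.0935), which passed with letters as a block (5.57, adjusted p = 0.0469). Without pA, pB or pC, 1 member passed in each case.

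Along the lineage, in the fit without letters as a block, 0 of the 4 members passed edgeR's adjusted threshold at any step, and hardly any gene did. The share of all genes called was 0.0805% for qNSC2 against qNSC1, 0.194% for aNSC against qNSC2, 0% for TAP against aNSC and 0.0939% for neuroblasts against TAP. That fit leaves out the pairing of sums by letter. With letters as a block, edgeR called 60, 312, 18 and 17 genes at these steps, against 12, 29, 0 and 14 without it. At an unadjusted p under 0.05 the counts of members were 3, 1, 1 and 2 in that order of steps, and DESeq2 called 1, 1, 0 and 0. The log2 difference of Vim between qNSC2 and qNSC1 was 2.80 (SE 0.657, adjusted p = 0.118 by edgeR), and with letters as a block 2.86 (adjusted p = 0.0273). For Gfap it was 2.77 (SE 0.933, adjusted p = 0.297) at this step and -5.08 (SE 1.29, adjusted p = 0.102) between aNSC and qNSC2, where the block gave -4.96 (adjusted p = 0.0480). Without pD, the letter with the lowest median depth, Nes was called between qNSC2 and qNSC1 (7.17, adjusted p = 0.0239 by edgeR) and Gfap between aNSC and qNSC2 (-4.88, adjusted p = 0.0297). In simulated counts of these groups, 39% of genes changed by 4 on the log2 scale were called, and 0% of those changed by 2.

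The surface sorts of pA, pB and pC, which used no transcript, gave the same genes in fewer steps. The NSC sort held the most Gfap in pA and pC and the ASTRO sort in pB, the neuroblast (NB) sort almost none, and the oligodendrocyte (OLIGO) sort almost none of Gfap, Vim or Nes. Gfap was at 40.8, 74.9 and 31.96 CPM in the ASTRO sort, 0, 0.0522 and 0 CPM in the NB sort and 1.32, 4.47 and 1.19 CPM in the OLIGO sort, against 144.3, 62.5 and 245.3 CPM in the NSC sort, always in the order pA, pB, pC. The NSC sort of pB had 15 cells and 12885813 reads, but 8 cells and 6309939 reads without the cells labelled oligodendrocyte. The part of those cells in its lower Gfap was not tested. The NB sort held 1 Gfap read among 36185138, so the NSC sort was 3809-fold higher, with a 95% counting interval of 683 to 150510. In sums of cells, fewer cells of a type and less RNA per cell cannot be told apart, and counting intervals cover counting error only.

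With edgeR over 14348 genes, Gfap fell in the NB sort by 11.94 on the log2 scale (SE 1.16, adjusted p = 0.000167) and in the OLIGO sort by 5.71 (SE 0.831, adjusted p = 0.00118). In the OLIGO sort Vim also fell, by 5.43 (SE 1.15, adjusted p = 0.0131), at 0, 1.46 and 0.954 CPM against 33.9, 27.3 and 73.1 CPM in the NSC sort. Nes fell there too (-7.57, SE 1.85, adjusted p = 0.0280), with 1 read in the OLIGO sort against 125 reads in the NSC sort, so that the NSC level was 182-fold higher (31.996 to 7228). Of all genes, 11.8% passed between NB and NSC, 6.1% between OLIGO and NSC and 0.0906% between ASTRO and NSC. In the last comparison 0 of the 4 members passed edgeR's adjusted threshold, 2 (Gfap and Synm) had an unadjusted p under 0.05, and DESeq2 called 0.

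Synm was at 214, 142.5 and 146.9 CPM in the OLIGO sort and at 0.396, 0.157 and 0 CPM in the NB sort, against 64.9, 68.1 and 0 CPM in the NSC sort. It fell in the NB sort (log2 difference -7.72, SE 1.84, adjusted p = 0.0171 by edgeR). Oligodendrocyte markers moved with it in the NSC sort: the 7 summed to 9125, 41392 and 176 CPM in pA, pB and pC. With the oligodendrocyte-labelled cells of that sort taken out, an alternative chosen after seeing the data, the log2 difference of Synm was -6.27 in the NB sort (adjusted p = 0.0416) and 3.60 in the OLIGO sort (adjusted p = 0.154, against 2.13 and 0.455 with them). Without pA, 0 of the 4 members passed in the OLIGO sort, and without pA or pB 1 passed in the NB sort.

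In naive vSVZ and striatum, pJ (KO) and pM (TiCY) each gave the same types. Gfap was at 163 CPM in KO and 185 CPM in TiCY qNSC2, at 61.4 CPM in KO and 34.5 CPM in TiCY vSVZ astrocytes, and at 26.0 CPM in KO and 32.2 CPM in TiCY striatal astrocytes. Vim was at 200 CPM in KO and 201 CPM in TiCY qNSC2, at 34.2 CPM in KO and 31.4 CPM in TiCY vSVZ astrocytes, and at 2.28 CPM in KO and 31.4 CPM in TiCY striatal astrocytes. In both letters Gfap and Vim were thus higher in qNSC2 than in either astrocyte type. The KO striatal value rests on 10 reads in 2 of 35 cells. Nes was at 30.3 CPM in KO and 8.68 CPM in TiCY qNSC2, at 0.507 CPM in KO and 0.806 CPM in TiCY vSVZ astrocytes, and at 0 in the striatal astrocytes of both letters.

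Past the stem cells, Gfap was at 230 CPM in KO and 18.5 CPM in TiCY aNSC, and at 0 in KO and 1.54 CPM in TiCY TAP, while Vim and Nes stayed between 141 and 431 CPM and between 67.1 and 137 CPM in those 2 types. Neuroblasts had 12.2 CPM of Gfap in KO and 0 in TiCY, and 34.1 CPM of Nes in KO and 7.94 CPM in TiCY. With edgeR over 16009 genes and 2 letters, 0 of the 4 members passed at any of 5 steps. Unadjusted p was under 0.05 for 1 member between striatal and vSVZ astrocytes, 2 each for qNSC2 against vSVZ astrocytes and aNSC against qNSC2, and 1 each for TAP against aNSC and neuroblasts against TAP. The shares of all genes called were 0%, 0.0125%, 0.05%, 0.0312% and 4.1% in that order. DESeq2 called Nes between qNSC2 and vSVZ astrocytes (log2 difference 4.73, adjusted p = 0.00174) and Gfap between TAP and aNSC (-7.25, adjusted p = 0.00316), and 0 members at the other 3 steps. With 2 TAP reads of Gfap against 246 in aNSC, the level in aNSC was 109-fold higher, with a counting interval of 29.9 to 906. Of those aNSC reads 212 came from 1 of the 7 KO cells.

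Astrocytes of other regions added 2 comparisons within a letter, each without a replicate. Cortical astrocytes of pL had Vim at 44.7 CPM, against 6.88 CPM in striatal astrocytes, 6.50-fold higher (4.57 to 9.48), and Synm at 1.85 CPM against 9.85 CPM, 0.188-fold (0.0816 to 0.385). Their Gfap was 13.8 CPM against 10.8 CPM, a ratio of 1.28 whose interval, 0.887 to 1.85, includes no difference. In pE, WT striatal astrocytes had 148 CPM of Gfap and 91.1 CPM of Vim, against 48.5 and 33.1 CPM in qNSC1 of the same letter. Gfap was thus 3.05-fold higher (2.81 to 3.32) and Vim 2.75-fold higher (2.48 to 3.06), while Synm was at 2.30 CPM against 17.9 CPM. A single striatal astrocyte of the 12 held 61.7% of the Vim reads, and a single one 40.7% of the Gfap reads.

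At 2 days after ischemia, Gfap, Vim and Nes were each far above naive in the GLAST sorts of striatum and vSVZ and in both genotypes, and Synm was not called in either region. By 21 days, measured in TiCY mice alone, Gfap and Vim were 1.26-fold to 2.09-fold of naive, and Nes in the vSVZ 7.23-fold. In the striatum, Gfap was at 534 CPM at 2 days against 26.0 CPM in naive KO, and in TiCY at 32.2 CPM in naive, 1915 CPM at 2 days and 40.6 CPM at 21 days. Vim was at 215 CPM against 2.28 CPM in KO, and at 31.4, 626 and 55.1 CPM in TiCY over the same times. Nes was at 67.8 CPM against 0 in KO, and at 0, 286 and 5.06 CPM in TiCY.

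Relative to naive, Gfap in KO striatum at 2 days was 20.5-fold higher (17.04 to 24.9), Vim 94.2-fold higher (51.1 to 197, on 10 naive reads) and Nes at least 98.9-fold higher, against a floor of 3 counts in the naive sum. The KO value of Vim was 35.3-fold as a mean over cells and 906-fold without cells under 50000 reads. In TiCY striatum Gfap was 59.4-fold higher (54.5 to 64.9), Vim 19.9-fold higher (18.3 to 21.8) and Nes at least 1533-fold higher on the same floor. At 21 days the TiCY ratio to naive was 1.26 for Gfap (1.11 to 1.43), 1.75 for Vim (1.56 to 1.97) and at least 27.2 for Nes. Synm in KO was at 5.21 CPM at 2 days against 0.457 CPM in naive, where it rested on 2 reads, a ratio of 11.4 (3.02 to 96.6), and in TiCY at 4.04, 5.43 and 5.29 CPM over the 3 times.

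A fit per region over all 5 arms tested 2 days against naive across both genotypes, and KO against TiCY across both times. It has 1 residual degree of freedom, so the spread comes from the trend over all genes. With 1 sum per arm, the p-values of this fit do not measure the spread between letters or mice of an arm. In the striatum, where 2.3% of 22409 genes passed, edgeR called Gfap higher at 2 days by 5.01 on the log2 scale (SE 0.864, adjusted p = 1.84e-06), Vim by 5.23 (SE 0.832, adjusted p = 1.30e-07) and Nes (adjusted p = 2.16e-18), 3 of the 4 members. Synm was at 1.70 (SE 2.14, adjusted p = 0.885). Markers of other cells moved with these sums. In KO striatum the 6 endothelial markers were at 7.54 CPM at 2 days against 1.14 CPM in naive, and the 7 microglial ones at 1.86 CPM against 0. In TiCY striatum they were at 115 CPM against 5.84 CPM and at 37.4 CPM against 13.9 CPM, while astrocyte markers were at 7994 CPM against 35576 CPM. Their part in the result was not tested.

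A further 34 TiCY cells of the 2-day striatal GLAST sort and 38 of the 21-day one are labelled and counted in a second table, not in the main one. Adding them, an alternative chosen after seeing the data, leaves Gfap, Vim and Nes much as they were: 73.1%, 68.6% and 40.4% of 2-day cells then held a read, against 80.3%, 73.8% and 42.6%. It changes Synm, since 3664 Synm reads lay in those 34 cells and 271 in the 122 cells of the main table. Statements on striatal Synm after ischemia therefore cover the main table's cells only.

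In the vSVZ the naive levels were higher and the folds smaller than in TiCY striatum. Gfap was at 1587 CPM at 2 days against 86.2 CPM in naive KO, and in TiCY at 60.3 CPM in naive, 1294 CPM at 2 days and 109 CPM at 21 days. Vim was at 919 CPM against 109 CPM in KO, and at 94.4, 1055 and 197 CPM in TiCY. Nes was at 97.1 CPM against 23.6 CPM in KO, and at 12.7, 115 and 91.9 CPM in TiCY. At 2 days the fold over naive was 18.4 in KO and 21.5 in TiCY for Gfap, 8.41 in KO and 11.2 in TiCY for Vim, and 4.12 in KO and 9.03 in TiCY for Nes. At 21 days the TiCY fold was 1.82 for Gfap, 2.09 for Vim and 7.23 (6.46 to 8.10) for Nes.

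edgeR called the same 3 members in the vSVZ, where 10.9% of 24153 genes passed: Gfap higher by 4.24 on the log2 scale (SE 0.450, adjusted p = 1.31e-17), Vim by 3.20 (SE 0.427, adjusted p = 2.72e-11) and Nes by 2.53 (SE 0.455, adjusted p = 1.96e-06). Synm was at -0.34 (SE 1.19, adjusted p = 0.930), with 3.34 CPM at 2 days against 5.30 CPM in naive KO, and 4.52, 4.95 and 4.39 CPM over the 3 times in TiCY. Beside this, the 6 neuroblast markers were at 1622 CPM at 2 days against 295 CPM in naive KO and at 2654 CPM against 361 CPM in TiCY. Astrocyte markers were at 10546 CPM against 23631 CPM in KO and at 6394 CPM against 27735 CPM in TiCY. The 7 ependymal markers stayed between 60.3 and 88.0 CPM in all 5 vSVZ sums. The part of cell make-up in the sort values was not tested.

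**Figure D2:**
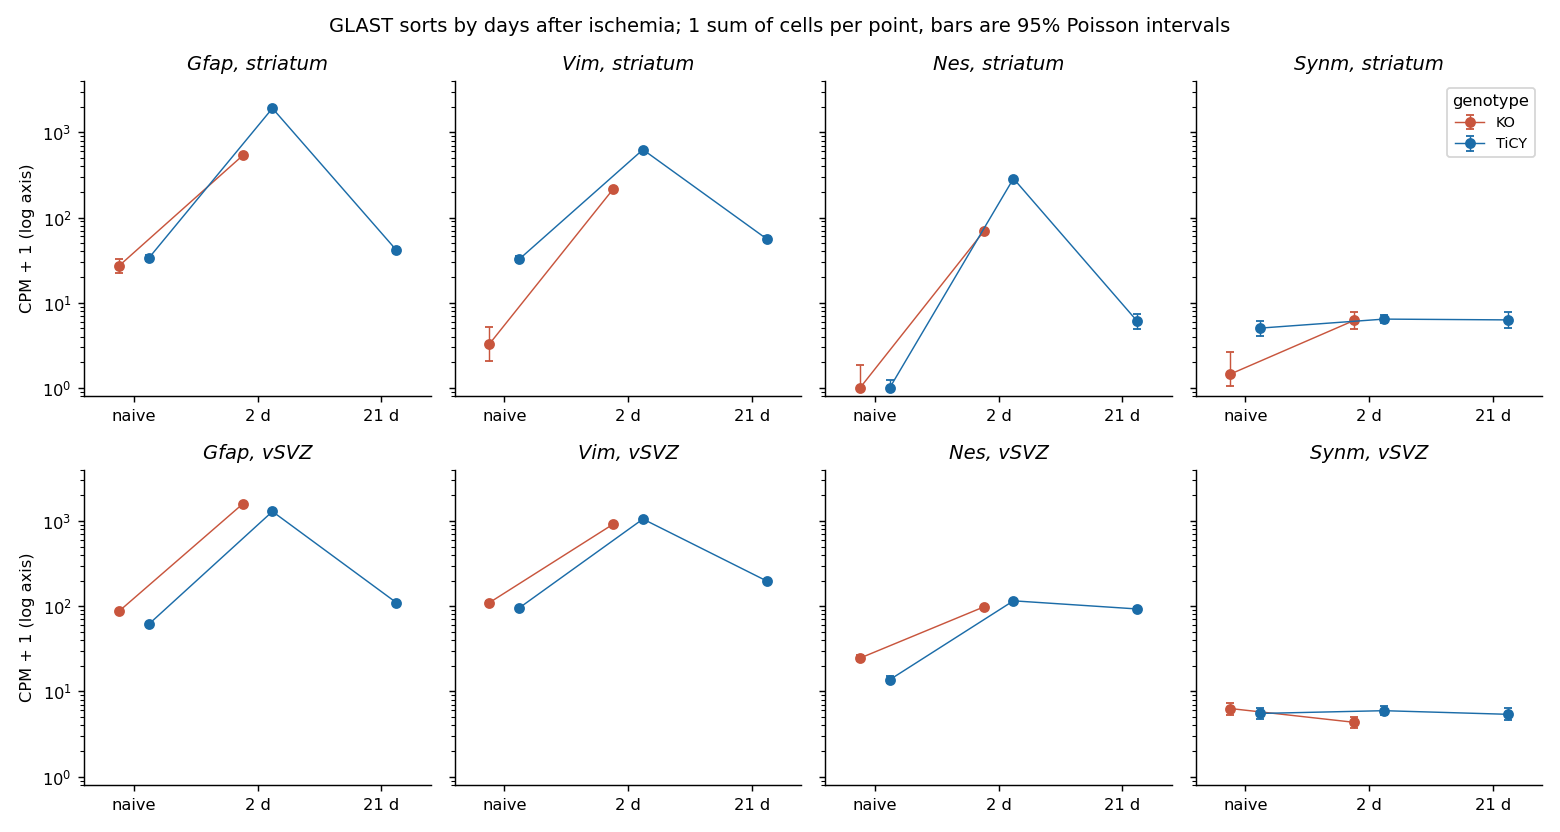
CPM plus 1 (log axis) of each filament gene in the GLAST sort of striatum (top) and vSVZ (bottom), naive and at 2 and 21 days after ischemia, for KO (red, no 21-day arm) and TiCY (blue); each point is 1 sum of cells and bars are 95% Poisson intervals. Gfap, Vim and Nes peak at 2 days in both regions, Nes stays at 91.9 CPM at 21 days in the vSVZ, and Synm stays between 0.457 and 5.43 CPM in the main table's cells. TiCY striatal cells held only in the second table, not plotted, had 3664 Synm reads at 2 days and 2096 at 21 days, against 271 and 69 in those plotted.

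Between the genotypes, 0 of the 4 members passed edgeR's adjusted threshold in either region. In the striatum 2 (Vim and Nes) had an unadjusted p under 0.05 and DESeq2 called 1; in the vSVZ both counts were 0. Of all genes, 0.982% passed in the striatum and 0.596% in the vSVZ. The nearest was striatal Vim, at -2.64 (SE 0.757, adjusted p = 0.0509 by edgeR), which passed with DESeq2's size factors in edgeR (adjusted p = 0.0311) and in DESeq2 (adjusted p = 0.0188). The sums themselves at 2 days were lower in KO than in TiCY striatum, 0.279-fold for Gfap, 0.344-fold for Vim and 0.237-fold for Nes, with no replicate. In the vSVZ those ratios were 1.23, 0.871 and 0.846, and the one of Vim was 1.09 as a mean over cells. The tested difference covers naive and 2-day sums together. In naive striatum the KO to TiCY ratio of Vim was 0.0728 (0.0347 to 0.135), on 10 KO reads. The naive striatal ratio of Gfap was 0.807, and neither genotype held a Nes read there. Letter and genotype cannot be told apart, the KO cells of day 2 were shallower (a median of 98844 reads against 404710 in striatum), and the interaction of genotype and time could not be fitted with 1 sum per arm.

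Within labelled types of KO mice, Gfap and Vim were higher at 2 days in astrocytes, quiescent and active stem cells, and Vim differed less in TAP and neuroblasts. Both times come from the letter pJ, so these are values without a replicate. Gfap was at 3916 CPM at 2 days against 163 CPM in naive qNSC2, 24.1-fold higher (22.5 to 25.9). It was at 1255 CPM against 61.4 CPM in vSVZ astrocytes, 20.4-fold (18.9 to 22.1), at 419 CPM against 26.0 CPM in striatal astrocytes, 16.1-fold (13.4 to 19.6), and at 2236 CPM against 230 CPM in aNSC, 9.73-fold (8.49 to 11.2). All naive aNSC reads lay in 1 of 7 cells, so that fold rests on it. In TAP it was 36.7 CPM against 0, at least 14.2-fold on the floor of 3 counts, and in neuroblasts 37.5 CPM against 12.2 CPM, 3.07-fold (1.94 to 5.15), or 1.44-fold as a mean over cells. At 2 days 1 cell held 84.5% of the TAP reads and 1 cell 95.2% of the neuroblast reads, and the naive neuroblast reads lay in 1 of 8 cells.

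Vim was at 2071 CPM against 200 CPM in qNSC2, 10.4-fold higher (9.73 to 11.1), and at 584 CPM against 34.2 CPM in vSVZ astrocytes, 17.1-fold (15.4 to 19.01). In striatal astrocytes it was at 132 CPM against 2.28 CPM, 57.8-fold (31.3 to 121), which was 25.6-fold as a mean over cells and 538-fold without cells under 50000 reads. In aNSC, TAP and neuroblasts the Vim ratio was 2.19, 1.77 and 1.19. Nes was 5.38-fold higher in qNSC2 (163 CPM against 30.3 CPM), 0.735-fold in aNSC (100.3 CPM against 137 CPM) and 1.42-fold in TAP. Its levels in astrocytes were low at both times, 3.34 CPM against 0.507 CPM in vSVZ astrocytes, 6.58-fold (2.53 to 20.1), or 2.66-fold as a mean over cells, and 3.86 CPM against 0 in striatal ones, at least 5.64-fold on the floor of 3 counts. Cells labelled striatal astrocyte held 29 of the 728 Nes reads of the KO striatal sort at 2 days. Synm in qNSC2 was at 5.40 CPM against 18.5 CPM, 0.292-fold (0.204 to 0.415), or 0.502-fold as a mean over cells, and all 91 naive reads lay in 1 of 31 cells. In vSVZ astrocytes Synm was at 4.57 CPM against 1.44 CPM, 3.18-fold (1.66 to 6.24), which was 7.73-fold as a mean over cells and 0.955-fold without cells under 50000 reads. In striatal astrocytes it was at 4.66 CPM against 0.457 CPM, 10.2-fold (2.62 to 87.6) on 2 naive reads.

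**Figure D3:**
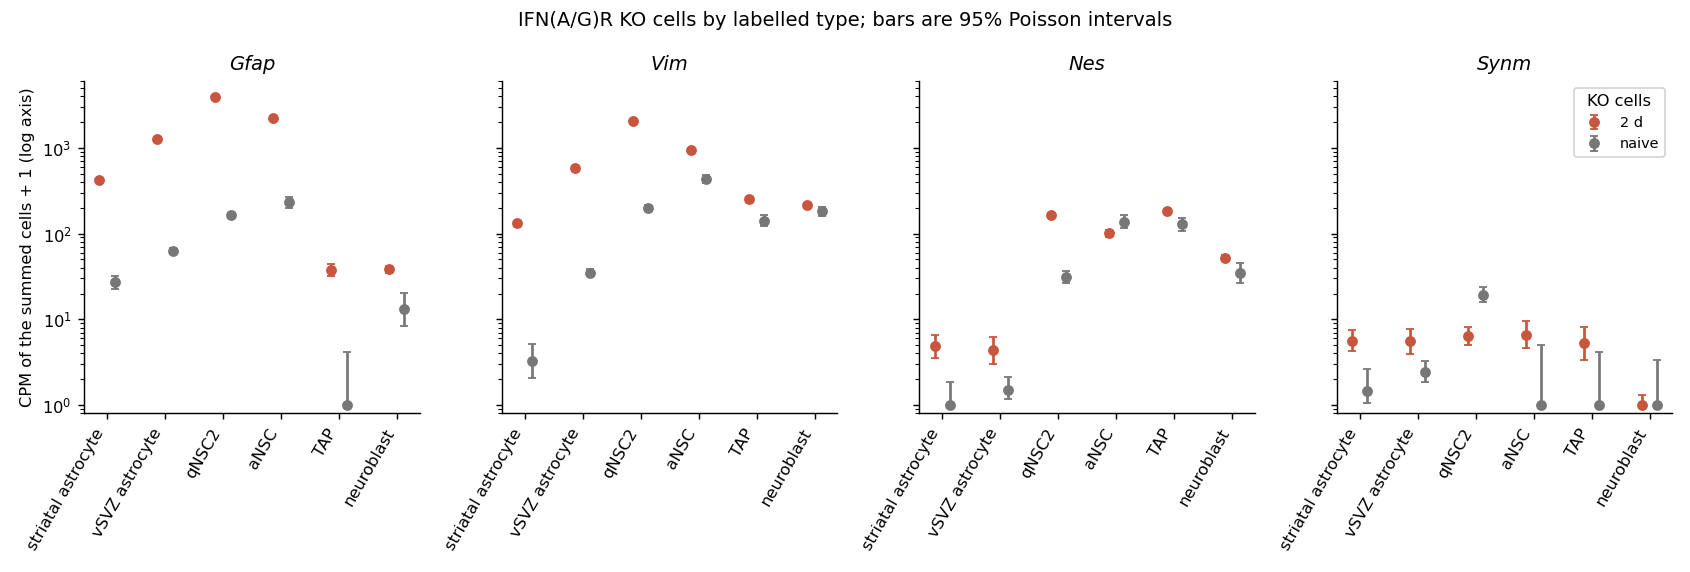
CPM plus 1 (log axis) of each filament gene in KO cells by labelled type at 2 days (red) and naive (grey); each point is the sum of all cells of the type in pJ and bars are 95% Poisson intervals. The Gfap sums lie higher at 2 days, as with 3916 CPM against 163 CPM in qNSC2, but in TAP and neuroblasts 84.5% and 95.2% of the 2-day reads come from 1 cell; Nes in astrocytes is at 3.86 CPM or less.

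Nes was high in the cells that the labels set apart at 2 days. The 5 KO reactive astrocytes from striatum had 724 CPM of Nes, 2040 CPM of Gfap and 1360 CPM of Vim, the 4 from vSVZ had 838, 3557 and 8082 CPM in the same gene order, and all 9 held a read of each. The 7 TiCY reactive astrocytes, all striatal, had 595 CPM of Nes, 1197 CPM of Gfap and 1533 CPM of Vim, with 74.5% of the Gfap reads in 1 cell. Neither group held a Synm read. Cells labelled neurogenic striatal astrocyte had 103 CPM of Nes, 525 CPM of Gfap and 197 CPM of Vim in KO (27 cells), and 215, 3752 and 1046 CPM in TiCY (6 cells) in the same gene order. The reactive label may have been given on these very genes, so their levels describe the label. Microglial and endothelial markers in the reactive astrocytes summed to 3.92 and 6.54 CPM in KO, and to 0 and 3.61 CPM in TiCY.

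The 5 TiCY qNSC2 of day 2 also stood above naive in Gfap, Vim and Nes, with a larger Nes fold than the 5.38 of KO qNSC2. Gfap was at 5281 CPM against 185 CPM in 39 naive TiCY qNSC2, 28.6-fold higher, Vim at 2834 CPM against 201 CPM, 14.1-fold, and Nes at 243 CPM against 8.68 CPM, 28.0-fold (20.9 to 38.2). A single cell held 51.6% of the Gfap reads, and a single cell 71.9% of the Nes reads.

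How many cells carried the transcripts differed between the regions. In KO striatum, 79.8% of 114 cells had a Gfap read at 2 days, against 28.6% of 35 naive cells. Vim was read in 71.1% against 5.71%, and Nes in 24.6% against 0 of 35, which allows a share of up to 8.57% (3 cells of the total, the limit used here for a count of 0). In TiCY striatum the shares were 80.3% of 122 cells against 22.1% of 131 for Gfap, 73.8% against 32.8% for Vim and 42.6% against 0 of 131 for Nes, which allows up to 2.29%. After thinning each cell to 50000 reads, Gfap in TiCY striatum was at 68.0% against 20.8% at median depths of 404710 and 142360 reads.

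In KO vSVZ more cells were positive at 2 days, 58.3% of 228 against 27.6% of 134 naive cells for Gfap and 74.1% against 39.6% for Vim, and cells with a Gfap read held a median of 1310 CPM against 161 CPM. In TiCY vSVZ the share was closer, 33.5% of 176 cells against 26.6% of 188 for Gfap and 44.3% against 49.5% for Vim. Cells with a read held more of it: their median was 2109 CPM at 2 days against 90.1 CPM in naive for Gfap, and 1164 CPM against 122 CPM for Vim. In cells that should lack Gfap, a read was found in 5.5% of WT olfactory bulb cells, 0% to 14.3% of WT neuroblasts by letter and 5.88% to 12.5% of the OLIGO sort, at median depths of 145150, 121070 to 983400 and 169230 to 1290800 reads. The 4 vSVZ sums had medians of 141750 to 196500 reads. The KO neuroblasts of day 2, at 11.8%, lay within that background.

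Gfap and Vim were often read in the same cell at 2 days and seldom in naive mice. In KO qNSC2, 94.0% of 67 cells held both at 2 days, against 22.6% of 31 naive cells, in which Vim alone was common (83.9% with Vim, 35.5% with Gfap). Both were found in 80.6% against 8.9% of vSVZ astrocytes and in 59.8% against 0% of striatal astrocytes. The share of each gene by itself was high at 2 days too. In KO qNSC2 it was 98.5% for Gfap and 95.5% for Vim, and in KO striatal astrocytes 85.4% and 69.5%. A share with both rises with these shares, and whether more cells held both than they give was not tested. In the striatal TiCY sort the share with both was 7.6% in naive, 63.1% at 2 days and 7.6% at 21 days, and Gfap, Vim and Nes were all read in 36.9% at 2 days against 0% in naive. In the TiCY vSVZ at 2 days, Vim was read in 96.6% of the cells with Gfap and in 17.9% of those without, whereas in naive the shares were 56.0% and 47.1%. Nes there was read in 44.1% of cells with Gfap and 29.1% of those without.

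**Figure D4:**
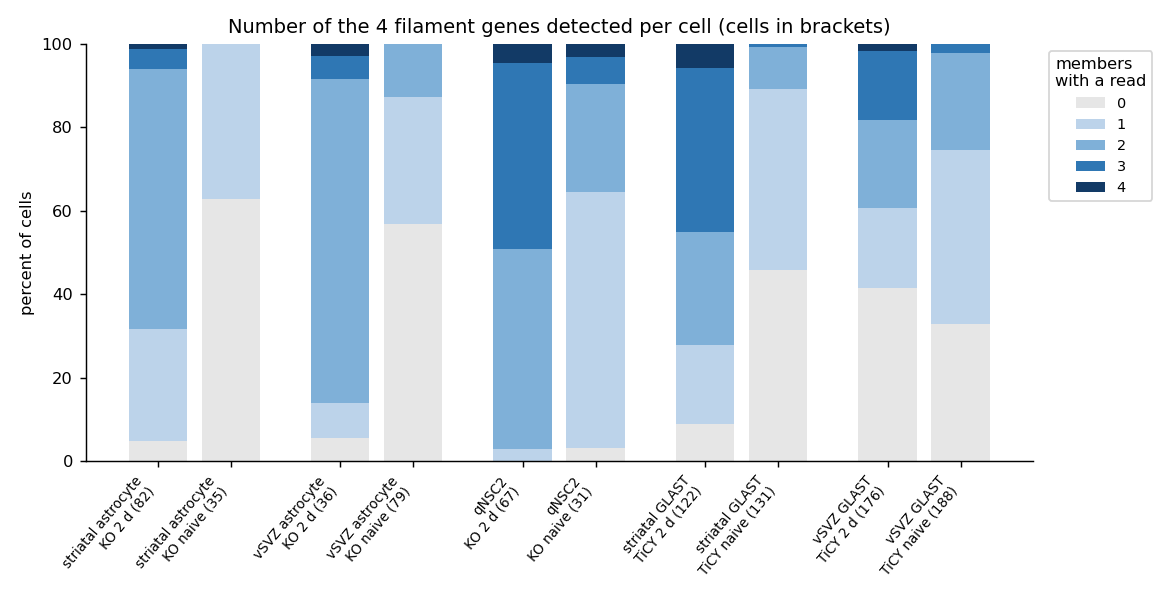
Percent of cells (y axis) with a read of 0, 1, 2, 3 or all 4 filament genes, for KO astrocytes and qNSC2 and for the TiCY GLAST sorts, 2 days left of naive in each pair, with cell numbers in brackets. Cells with none were 4.9% in KO striatal astrocytes at 2 days, against 62.9% in naive, and 9.0% in the TiCY striatal sort, against 45.8%, while in the TiCY vSVZ they were 41.5% against 33.0%.

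Among cells of 1 group the 2 levels also went together at 2 days after ischemia, most clearly in KO qNSC2 and the GLAST sorts. Across the 67 KO qNSC2 of day 2 the rank correlation of Gfap and Vim CPM was 0.67, against -0.22 across the 31 naive ones. It was 0.84 across the 176 cells of the TiCY vSVZ sort and 0.57 across the 122 of the striatal sort at 2 days, against 0.12 and 0.03 in naive. These cells share a library, and each gene's own correlation with depth in those 2-day TiCY sorts lay between -0.16 and 0.34, so the values are descriptions. Nes and Gfap correlated at 0.43 in TiCY striatum and 0.14 in TiCY vSVZ at 2 days. For Gfap and Vim, KO vSVZ astrocytes had 0.39 at 2 days against 0.30 in naive, and KO striatal astrocytes 0.31 at 2 days. Some naive groups had similar values, 0.37 in WT qNSC2 of pD and 0.41 in the WT NSC sort of pE. Others were lower, 0.15 in TiCY qNSC2 and 0.03 in the WT GLAST sort of pD. The sorts mix cell types, whose part in these values was not tested.

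**Figure D5:**
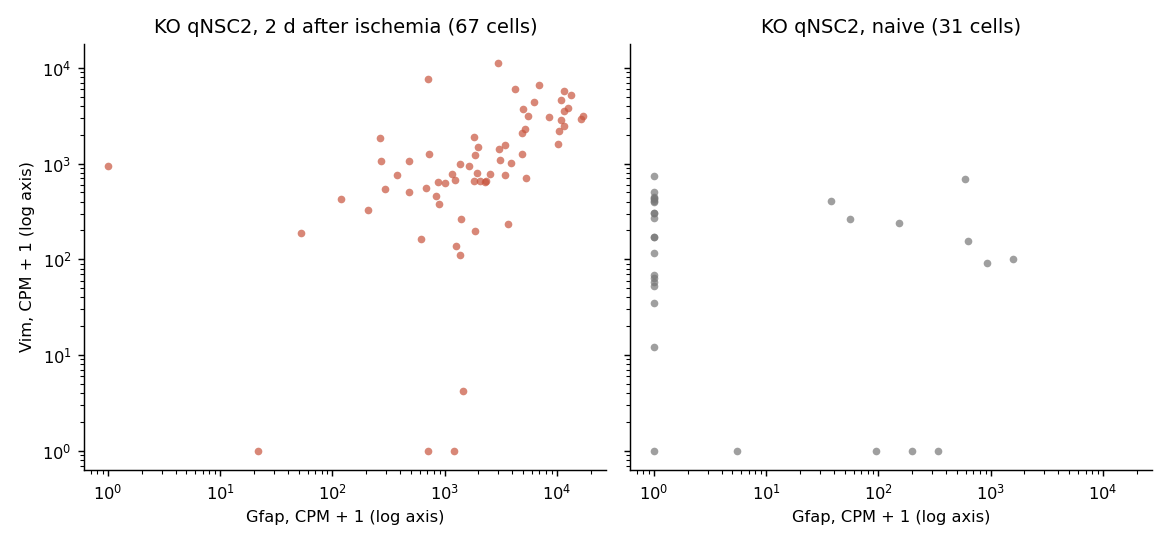
Vim against Gfap, both as CPM plus 1 on log axes, in single KO qNSC2 at 2 days (left, 67 cells) and naive (right, 31 cells). At 2 days nearly all cells hold both (94.0%); in naive, cells with Vim and no Gfap line the left edge (22.6% hold both).

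The genes whose level by type was most like each member were found over 22 WT sums and 12 naive sums, as the lower of 2 Pearson correlations of log2(CPM + 1) among 7236 genes. The sums share letters and types, so these are descriptions. Nearest to Gfap were Itm2c (0.86 in WT and 0.86 in naive sums), Ddo (0.88 and 0.85) and Gstm1 (0.86 and 0.85). Vim was nearest to Zbtb20 (0.90 and 0.82), Tox3 and Hmgn1, and Nes to Mfap2 (0.91 and 0.94), Arl4c and Cdk4, a cell cycle kinase. Synm lay nearest to Padi2 (0.74 and 0.74), Tppp3 and Ubl3. Among the members, Vim and Nes were alike (0.78 and 0.84), Gfap and Vim were not (0.23 and -0.02), and Vim and Synm ran opposite in WT sums (-0.70 and -0.19).

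Genes around the filaments were described from lists chosen with earlier results of these data known. Of 13 tested genes that mark reactive astrocytes, 9 rose and 0 fell in the striatal sort at 2 days, where 2.3% of all genes passed, with a median log2 difference of 3.84 against 0.36 over all genes. Among them Emp1 had the smallest p (edgeR adjusted p = 1.53e-16), then Cd44, the hyaluronan receptor (6.33, SE 0.900, adjusted p = 1.25e-09), and Anxa2 (5.25, adjusted p = 7.45e-07). In the vSVZ, where 10.9% of all genes passed, 8 of 14 rose and 0 fell, with a median of 2.21 against 0.08 over all genes, led by Serpina3n, a secreted protease inhibitor (5.94, SE 0.542, adjusted p = 8.04e-24), C3, the complement component (5.90, adjusted p = 5.00e-08), and Lgals1 (2.35, adjusted p = 6.04e-06).

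Of 16 genes of the STAT3, BMP and Notch inputs to Gfap, Socs3, Osmr and Id1 rose in the striatum and none fell; Socs3, the feedback inhibitor that STAT3 induces, had an adjusted p of 2.76e-08 by edgeR. In the vSVZ 4 rose, Socs3 (4.23, adjusted p = 1.39e-13), Osmr, a receptor of the IL-6 family, and Id1 first, and 3 fell: Hes5, a Notch target (-2.87, adjusted p = 2.72e-07), Sox9 (-2.43, adjusted p = 1.30e-06) and Cntfr (-1.55, adjusted p = 0.00238). The list's median was -0.09 against 0.08 over all genes there, and 0.34 against 0.36 in the striatum.

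Ina, the neuronal filament alpha-internexin, rose in both regions (vSVZ 2.75, SE 0.495, adjusted p = 2.03e-06 by edgeR). It was the call among 4 neuronal filament genes tested in the striatum and 1 of 2 among 5 in the vSVZ, where Nefm rose too (2.86, adjusted p = 0.0254). The median log2 difference of these genes was 7.10 in the striatum, where 3 of the 4 had no naive read (5.04 from pooled reads with counts under 3 set to 3), and 2.86 in the vSVZ (2.92). Of the 3 nuclear lamin genes, 1 rose in the striatum (list median 1.81) and 2 in the vSVZ (2.02). Lmna, which encodes the A-type lamins, rose in the striatum (5.05, SE 0.882, adjusted p = 2.74e-06 by edgeR) and in the vSVZ (2.20, SE 0.471, adjusted p = 0.000115), and Lmnb1 rose in the vSVZ.

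Of the linkers that tie filaments to membranes and other cytoskeleton, 0 of 5 passed in the striatum, where the list median was -0.23 against 0.36 over all genes and 2.3% of all genes passed. In the vSVZ, with a median of -1.37 against 0.08 and 10.9% of all genes passing, 3 of 6 fell by edgeR: Dtna (-2.86, adjusted p = 4.43e-09), Utrn (-1.90, adjusted p = 0.000305) and Macf1 (-1.80, adjusted p = 0.000470). Krt18 was the 1 call among 4 other cytoplasmic filament genes in the vSVZ (median -0.62) and it fell, while 0 of 5 passed in the striatum (median 1.18). Of 7 filament kinases 0 passed in either region, with medians of 0.05 in the striatum and 0.50 in the vSVZ. Between KO and TiCY, Nefm, Lmna and Lgals3 were lower in KO striatum, Hes5 was higher and C3 lower in KO vSVZ, and 0 other listed genes passed.

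Among WT sorts, Utrn (adjusted p = 0.00231), Plec, the plectin gene (-5.89, SE 1.26, adjusted p = 0.0134) and Dtna (-2.76, adjusted p = 0.0309) fell in the OLIGO sort relative to the NSC sort by edgeR, as did Lmnb1, Sox9, Hes5 and Hes1. In the NB sort Ina (adjusted p = 0.00178) and Lmnb1 (3.59, adjusted p = 0.00411) rose, as did Nfib and Nfix, while Dtna, Sox9, Hes5, Id3, Serpina3n and S100a6 fell. Plec, Utrn and Dtna were also lower in oligodendrocytes than in qNSC1 by type, where Pak1, a kinase, was higher (3.24, adjusted p = 0.00447) and Sox9, Hes5, Osmr and Tnc were lower. Between naive neuroblasts and TAP, Dtna, Plk1, Hes5 and Id3 were lower in neuroblasts.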

How the data were processed

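Single cells of sorted populations were profiled by Smart-seq3, and the deposited file holds raw read counts per gene and cell, made by the authors with STAR and featureCounts on GRCm38/mm10 per the submitters' processing notes, with no versions stated there. Of 2584 cells in the main table, 603 matched no label and were not used, and 103 labelled cells were not in it. A second deposited count table of 614 cells shared 513 with it, with 2052 of 2052 member values equal, and gave the 101 cells that only it held. No 2 cells were identical in their counts.

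For each letter, the counts of all cells of 1 type or 1 sort were added up, with at least 3 cells per sum, and divided by the summed gene counts to give CPM. Sums were tested with edgeR 4.0.16 (R 4.3.3, limma 3.58.1, quasi-likelihood test, TMM, Benjamini-Hochberg over all genes, threshold 0.05), within library sets only: 22 WT type sums, 12 WT sort sums, 12 naive type sums, and 5 GLAST sums per region. DESeq2 1.42.0, DESeq2's size factors, no filter on low counts, a letter block, at least 5 cells per sum, cells of 50000 reads or more and leaving out each letter were alternatives. Single-letter ratios have exact 95% intervals for counting error, and shares of cells exact binomial ones; reads without molecular identifiers are not independent molecules. Python 3.11.15 with numpy 2.4.6, pandas 2.3.3, scipy 1.17.1 and matplotlib 3.10.9 served the rest. The test was tried on simulated counts: of genes changed by 4 on the log2 scale, 80% were called in the striatal and 98% in the vSVZ 2-day comparison, and 33% between naive types.

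Same-letter deviations correlated at 0.211 to 0.651 between WT types and at 0.212 to 0.526 between WT sorts, so letters pair these sums. The 4 members were named in every comparison; from each list of related genes, called genes were named, all where 5 or fewer passed and otherwise the 3 of smallest p. Members and lists were chosen with earlier results of these data known.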

Additional observations from a re-analysis of the deposited data

Results flagged for a closer look

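Of 12 groups of 4 or 5 letters tested, 4 had a letter that stood apart from the rest; chance alone marks about 1 group in 20. Gfap in WT neuroblasts was at 1.11 CPM in pD, and Nes there at 314.0 CPM, in a sum of 7 cells and 901249 reads. That Gfap level is near the floor, and most of those Nes reads came from a single cell. Nes in WT qNSC1 was at 19.5 CPM in pD, where the 7 ependymal markers summed to 342 CPM and the astrocyte markers to 18961 CPM, against 39865 to 55457 CPM in the other letters. Synm in WT qNSC2 was at 22.3 CPM in pE.

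Cells held only in the second table showed reads that the main comparisons do not use. In the vSVZ oligodendrocyte sort of TiCY mice at 2 days, Gfap was read in 57.1% (8 of 14 cells, a median of 1 read and at most 49) and Nes in 28.6%, against 0% for both in the naive sort. In the 34 such cells of the striatal GLAST sort at 2 days, Gfap was read in 47.1%, Vim in 50.0%, Nes in 32.4% and Synm in 76.5%, against 10.7% for Synm in the naive sort. In the 38 such cells at 21 days, Synm was read in 84.2%. Their type labels were mixed, and the cause was not tested.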

How the results depend on the processing

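Of the members called, 3 at 2 days against naive in each GLAST region and 0 between KO and TiCY vSVZ were the same under every alternative run; leaving out TiCY at 21 days gave 3 and 0 in both regions. Leaving out a letter gave 0 to 1 members for qNSC2 against qNSC1 and for aNSC against qNSC2 (both 1 without pD, also 1 with the replicate block and with DESeq2, against 0), 1 to 3 for oligodendrocytes against qNSC1 (0 within pC and pD, against 2), 1 to 2 for NB and 0 to 1 for OLIGO against NSC (2 and 3 with all letters), and 0 in the other WT comparisons. The block also added Synm to the oligodendrocyte calls (3 against 2) and changed no other call. DESeq2 called 1 member for naive qNSC2 against vSVZ astrocytes and for naive TAP against aNSC (also 1 with no filter on low counts), and 1 for KO against TiCY striatum (also 1 with DESeq2's size factors in edgeR), against 0 in each. The log2 difference of Synm between qNSC2 and qNSC1 ran from -4.72 without pE to 0.28 without pA. As a mean of CPM over cells, ratios that turned were Gfap of naive KO against TiCY striatum, 1.09, Synm of KO vSVZ at 2 days against naive, 1.55, and KO against TiCY vSVZ at 2 days, 1.09 for Vim and 1.52 for Synm. Without cells under 50000 reads Synm of KO vSVZ astrocytes was 0.955. Members at 2-fold or more were 2 with TMM scaling in KO TAP and in KO neuroblasts, and 0 as a mean over cells in KO neuroblasts, against 1 in each. The causes were not tested. Size factors moved log2 differences by -0.06 to 0.13 relative to TMM and turned no member.

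Counts of all genes called ranged more widely over the alternatives: 0 to 286 for qNSC2 against qNSC1 (12 as reported), 0 to 974 for aNSC against qNSC2 (29), 0 to 171 for TAP against aNSC (0), 0 to 353 for neuroblasts against TAP (14), 186 to 2485 for oligodendrocytes against qNSC1 (1636), 0 to 469, 369 to 2979 and 273 to 1908 for the ASTRO, NB and OLIGO sorts (13, 1690 and 875), 343 to 1090 and 1479 to 3430 at 2 days in striatum and vSVZ (515 and 2638), and 101 to 350 and 2 to 168 for KO against TiCY there (220 and 144). Between naive types they were 0 to 9, 2 to 104, 9 to 673, 6 to 587 and 686 to 2335 in lineage order (0, 2, 8, 5 and 656). With 2 naive letters, and 1 sum per other GLAST arm, leaving 1 out left no residual degrees of freedom and was not tested. The TiCY sum at 21 days has a term of its own in the fit. Leaving it out can therefore change the 2-day and genotype results only through the filter, the scaling and the spread. Depth limits low genes most: Synm in KO naive striatum rested on 2 reads and Vim on 10.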
